A study of Mus musculus with 6 samples.

Results

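Cytosolic ribosomal protein genes are described here in mouse liver, after an oral plant extract and after phosphate buffered saline. The genes were chosen by name from the gene table: names that begin with Rpl or Rps and a digit, plus Rplp0, Rplp1, Rplp2 and Rpsa, with protein coding given as one of the row's transcript types. The name pattern took in 320 rows, of which 218 named pseudogenes, 10 Rps6k kinase genes and 6 rows with no protein coding type were dropped. This left 86 genes of the 30889 rows, 51 with large subunit names (Rpl and Rplp) and 35 with small subunit names (Rps and Rpsa). The name alone also takes in the paralogs Rpl3l, Rpl7l1, Rpl22l1, Rpl36al, Rpl39l and Rps27l and the retrogenes Rps27rt and Rps23rg1. It further takes in Rps19bp1, whose product binds Rps19 and is not a core subunit. It leaves out some ribosomal proteins with other names, among them those encoded by Fau and Rack1, which are not described here. The extract group is 3 liver libraries from mice that received a water extract of Emilia sonchifolia, a medicinal herb. The control group is 3 liver libraries from mice that received phosphate buffered saline. Both groups were treated by mouth for 14 days, and the labels give no strain, genotype, sex, age or dose. Whether the libraries come from different animals is not stated, and p-values therefore reflect library-to-library spread alone.

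The ribosome reads messenger RNA on its small 40S subunit and joins amino acids on its large 60S subunit, and each cytosolic ribosomal protein sits in one of the subunits. Most of the proteins are needed in equal numbers, and in mammals their messages mostly begin with a run of pyrimidines, the TOP motif, through which mTOR signalling and the protein LARP1 control their translation together. The coding genes are short and strongly expressed in most tissues, and most have left processed pseudogenes in the mouse genome. In the liver the hepatocyte uses them to make the plasma proteins.

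RNA was captured on oligo(dT) beads and the libraries held 52941399 to 56603387 estimated counts with the extract and 51219533 to 61432016 in control. All 10 hepatocyte markers, among them Alb and Hnf4a, were expressed, with summed levels of 46371 to 46987 FPKM in extract livers and 48881 to 57676 FPKM in control livers. FPKM, as the authors gave it, is a fragment count scaled for gene length and sequencing depth. Counts were compared with edgeR's quasi-likelihood test over the 18071 genes that passed its filter on low counts, and a gene is said to rise or fall where its Benjamini-Hochberg adjusted p was under 0.05. The filter kept 85 of the 86 genes. It removed Rpl39l, a paralog of Rpl39 known for its expression in mouse testis, which was listed at 0 in all 3 extract libraries and had 0, 8 and 0 counts in the control libraries.

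Many rows of the table are near-identical copies of these genes, so reads can be counted to a gene or to its copy. Against the coding sequences in GENCODE M21, 727 other rows matched one of the genes at 90% identity or more over at least 80% of the coding sequence, and 519 of them do not carry the gene's pseudogene name. Of the 86 genes, 77 had such a row. The following stretches show how little separates 4 genes from a copy; in each pair, gene and copy changed in opposite directions. They are 90 bases of coding sequence on the coding strand, 5′ to 3′, with the bases that differ in capitals.
Rps26 (chr10:128624534-128626747, minus strand), coding bases 225 to 314: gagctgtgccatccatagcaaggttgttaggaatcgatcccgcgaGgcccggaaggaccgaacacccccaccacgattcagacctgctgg
Rps26-ps1 (chr8:107439131-107439579, minus strand): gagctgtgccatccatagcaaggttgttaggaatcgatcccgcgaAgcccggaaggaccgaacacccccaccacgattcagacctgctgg
Rpl34 (chr3:130726831-130730346, minus strand), coding bases 87 to 176: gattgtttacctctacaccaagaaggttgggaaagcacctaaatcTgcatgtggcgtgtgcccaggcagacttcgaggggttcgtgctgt
Rpl34-ps1 (chr6:71124610-71124963, plus strand): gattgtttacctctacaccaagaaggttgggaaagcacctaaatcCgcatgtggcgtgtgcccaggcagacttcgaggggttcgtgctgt
Rps2 (chr17:24718116-24721926, plus strand), coding bases 27 to 116: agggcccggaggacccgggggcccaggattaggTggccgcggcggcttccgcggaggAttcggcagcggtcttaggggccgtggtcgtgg
Rps2-ps13 (chrX:52898588-52899469, plus strand): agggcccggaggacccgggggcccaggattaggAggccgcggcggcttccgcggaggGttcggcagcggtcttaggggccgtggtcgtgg
Rps18 (chr17:33951999-33955663, minus strand), coding bases 356 to 445: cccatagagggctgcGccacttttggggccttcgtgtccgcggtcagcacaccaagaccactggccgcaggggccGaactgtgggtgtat
Rps18-ps6 (chr13:97760072-97760632, minus strand): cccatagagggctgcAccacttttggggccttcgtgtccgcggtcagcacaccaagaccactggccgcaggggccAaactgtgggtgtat
Coordinates are those the table gives for the whole gene, on GRCm38. Over the whole coding sequence, Rps26 and Rps26-ps1 differ at 2 of 345 bases, Rpl34 and Rpl34-ps1 at 2 of 351, Rps2 and Rps2-ps13 at 7 of 879, and Rps18 and Rps18-ps6 at 4 of 456.

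Ribosomal protein messages made up a smaller part of the liver libraries after the extract. The 86 rows held 1.11%, 1.09% and 1.14% of all counts in the extract libraries, against 1.25%, 1.39% and 1.41% in the control libraries. Every extract library lay below every control library, and the first control library was the lowest of the 3 controls. The mean was 1.12% ± 0.0248 with the extract and 1.35% ± 0.0857 in control (SD, n = 3 each). An exact permutation test over the libraries gave p = 0.1 (two-sided), the smallest that 3 against 3 libraries can give. The summed level was 5596, 5520 and 5744 FPKM in extract livers, against 6393, 7102 and 7112 FPKM in control livers, again without overlap. Summed over all genes, FPKM was also lower with the extract, at 331828 to 339695, against 346373 to 354060 in control, so FPKM values compare the groups on somewhat different scales. Fewer cells of a type and less RNA per cell cannot be told apart in whole tissue.

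Gene by gene, 43 of the 85 tested genes fell and 4 rose with the extract (edgeR, adjusted p under 0.05). Over all 18071 genes tested, 12.8% were called lower and 14.2% higher. Of the 1570 genes with a mean of at least 20 FPKM, 24.5% were lower and 31.3% higher, and of the 72 ribosomal protein genes among them, 39 were lower and 3 higher. The log2 fold change was below 0 for 72 of the 85, with a median of -0.23, a level 14.6% lower. All genes tested had a median of -0.02, and the 1570 genes of at least 20 FPKM a median of 0.02. The groups' CPM values, counts scaled to library size with TMM factors, did not overlap for 48 genes that were lower with the extract and 7 that were higher. Over all genes, 22.5% were lower and 22.2% higher without overlap. The number called lower rested on the libraries used: it was 28 without the second control library, 25 without the first extract library and 22 without the second extract library, and the median stayed between -0.28 and -0.17 over the 6 fits that each left out a library. In the same 6 fits, 1 to 4 genes were called higher, with 2 when the first or the second control library was left out and 1 when any extract library was. With total counts only in place of TMM factors, 49 of the genes fell and 2 rose, and over all genes 2833 were lower and 2120 higher, against 2309 lower and 2561 higher with TMM factors.

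The 4 genes whose own rows rose were Rpl34, Rps18, Rps26 and Rps3a1, and the gene whose own row fell most was Rps2. Rps2 encodes a small subunit protein at the entry of the messenger RNA channel. Its own row held 53.9, 61.5 and 50.1 FPKM in extract livers, against 167, 191 and 196 FPKM in control livers, a log2 fold change of -1.68 (SE 0.08, adjusted p = 1.29e-05). The groups are far apart, but 39 other rows are near-identical to Rps2, and its own row held only 20.2% of their joint counts with the extract and 59.5% in control. The copy Rps2-ps13 moved the other way, with 78.0, 79.0 and 79.2 CPM with the extract and 53.8, 56.6 and 36.1 in control (log2 fold change 0.69, SE 0.15, adjusted p = 0.011). With all its copies added, Rps2 had 608, 629.5 and 619 CPM with the extract, against 652, 727 and 627 in control (log2 fold change -0.11, SE 0.06, adjusted p = 0.181). These groups overlap, and the sum did not pass the test.

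Rpl34, a large subunit protein, showed the reverse. Its own row held 6.44, 6.11 and 6.53 FPKM in extract livers, against 2.26, 2.84 and 2.67 FPKM in control livers (log2 fold change 1.35, SE 0.09, adjusted p = 5.88e-05), and every extract library was above every control library. Rpl34-ps1, which held most of the joint counts, had 46.0, 44.6 and 44.0 CPM with the extract and 71.4, 78.2 and 77.4 in control (log2 fold change -0.75, SE 0.05). Summed over Rpl34 and its 9 copies, the values were 74.2, 70.9 and 73.2 CPM with the extract, against 87.5, 98.2 and 96.4 in control. The sum fell (log2 fold change -0.37, SE 0.05, adjusted p = 0.00177).

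Rps26 lies at the exit of the messenger RNA channel of the small subunit. Its own row held 79.9, 78.96 and 80.01 FPKM in extract livers, against 70.6, 77.6 and 66.5 FPKM in control livers (log2 fold change 0.22, SE 0.05, adjusted p = 0.0205). Rps26-ps1 had 155, 166 and 124 counts with the extract, against 2167, 2516 and 3200 in control, the largest fall among the 349 copy rows tested (log2 fold change -4.10, SE 0.19). The own row held 97.99% of the joint counts with the extract and 73.3% in control. Their sum fell, with a log2 fold change of -0.20 (SE 0.04, adjusted p = 0.00931).

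Rps18, in the head of the small subunit, held 55.5, 55.2 and 60.8 FPKM in extract livers, against 48.7, 48.2 and 33.6 FPKM in control livers in its own row, with the third control library lowest (log2 fold change 0.46, SE 0.13, adjusted p = 0.0326). With its 9 copies added, the groups overlapped at 213, 209 and 225 CPM with the extract, against 219.5, 223 and 239.6 in control (log2 fold change -0.07, adjusted p = 0.305). Rps3a1, a small subunit protein near the messenger RNA exit, had 178, 175 and 181 FPKM in extract livers, against 149.6, 156 and 175 FPKM in control livers, where the highest control library lay just above the lowest extract library (log2 fold change 0.21, SE 0.07, adjusted p = 0.0428). In CPM the own row of Rps3a1 was higher in every extract library than in every control library. With its 6 copies, among them Rps3a2 and Rps3a3, which both fell, the log2 fold change was -0.13 (adjusted p = 0.101). The rises of these rows were also lost when 1 library was left out: for Rps18 without the second control library or any extract library (adjusted p = 0.0574 to 0.103), for Rps26 without the first control library or any extract library (0.0521 to 0.0706), and for Rps3a1 without the first or second control library or any extract library (0.0847 to 0.149).

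**Figure D1:**
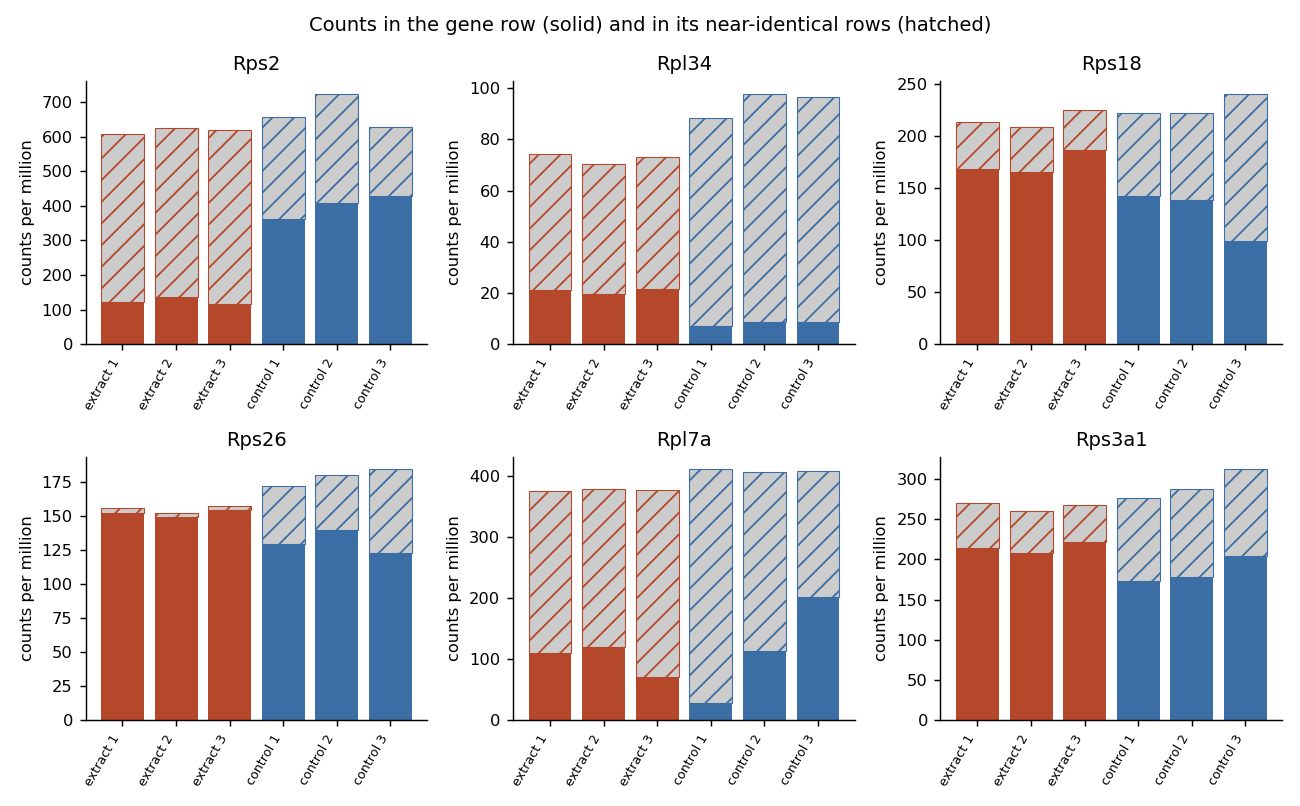
Counts scaled to library size with TMM factors (CPM, y axis) in each library for 6 genes, with the gene's own row solid and its near-identical rows hatched on top. For Rps2 the solid part is smaller in the 3 extract libraries, and for Rpl34, Rps18, Rps26 and Rps3a1 it is larger. The full heights are drawn on the scale of the deposited rows. Those of Rpl34, Rps26 and Rps3a1 do not overlap and are lower with the extract, and those of Rps18 overlap between the groups. For Rps2 the highest extract library comes close to the lowest control library, and on the scale of the fit with copies added these sums overlap. For Rpl7a the solid part varies within both groups, from 70.0 to 119 CPM with the extract and from 28.3 to 201 in control, and the full height is lower in every extract library than in every control library. In the fit with copies added, the sum for Rpl7a is between 375 and 381 CPM with the extract and between 407.3 and 407.6 in control.

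Adding the near-identical rows to each gene left no gene that rose. In that fit, chosen after the data had been seen, 54 of 85 genes fell and 0 rose by edgeR, against 12.5% lower and 14.9% higher among all 17722 genes tested. Without overlap of CPM were 63 genes lower and 2 higher with the extract, against 21.8% and 23.1% of all genes tested. By DESeq2 60 fell and 0 rose, and at an unadjusted p under 0.05 edgeR had 65 lower and 1 higher. The number of falls was 35 without the second extract library, 36 without the first extract library and 62 without the first control library, and no gene rose in any of the 6 fits that left out a library. The median log2 fold change was -0.23, as for the rows as deposited, and 79 genes lay below 0. The SD of the log2 fold changes over the 85 genes was 0.19, against 0.33 for the rows as deposited. Of the 43 genes called lower from their own rows, 40 (93.0%) were also lower with copies added, and these are 74.1% of the 54. Rps2, Rpl6 and Rpl13 were called from their own rows only. Another 14 fell with copies added and, over all 6 libraries, not from their own rows: Rpl3, Rpl7a, Rpl17, Rpl21, Rpl26, Rpl30, Rpl34, Rpl37a, Rps4x, Rps7, Rps13, Rps26, Rps27a and Rps28. The copies held at least 50% of the joint counts for 8 genes, Rps2, Rpl7a, Rpl17, Rpl21, Rpl26, Rpl29, Rpl34 and Rpl35a. Among the 36 tested genes with under 5% of their counts in copies, 21 fell and 0 rose from their own rows, with a median of -0.23. Of all genes tested from the deposited rows, 12.8% fell and 14.2% rose.

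**Figure D2:**
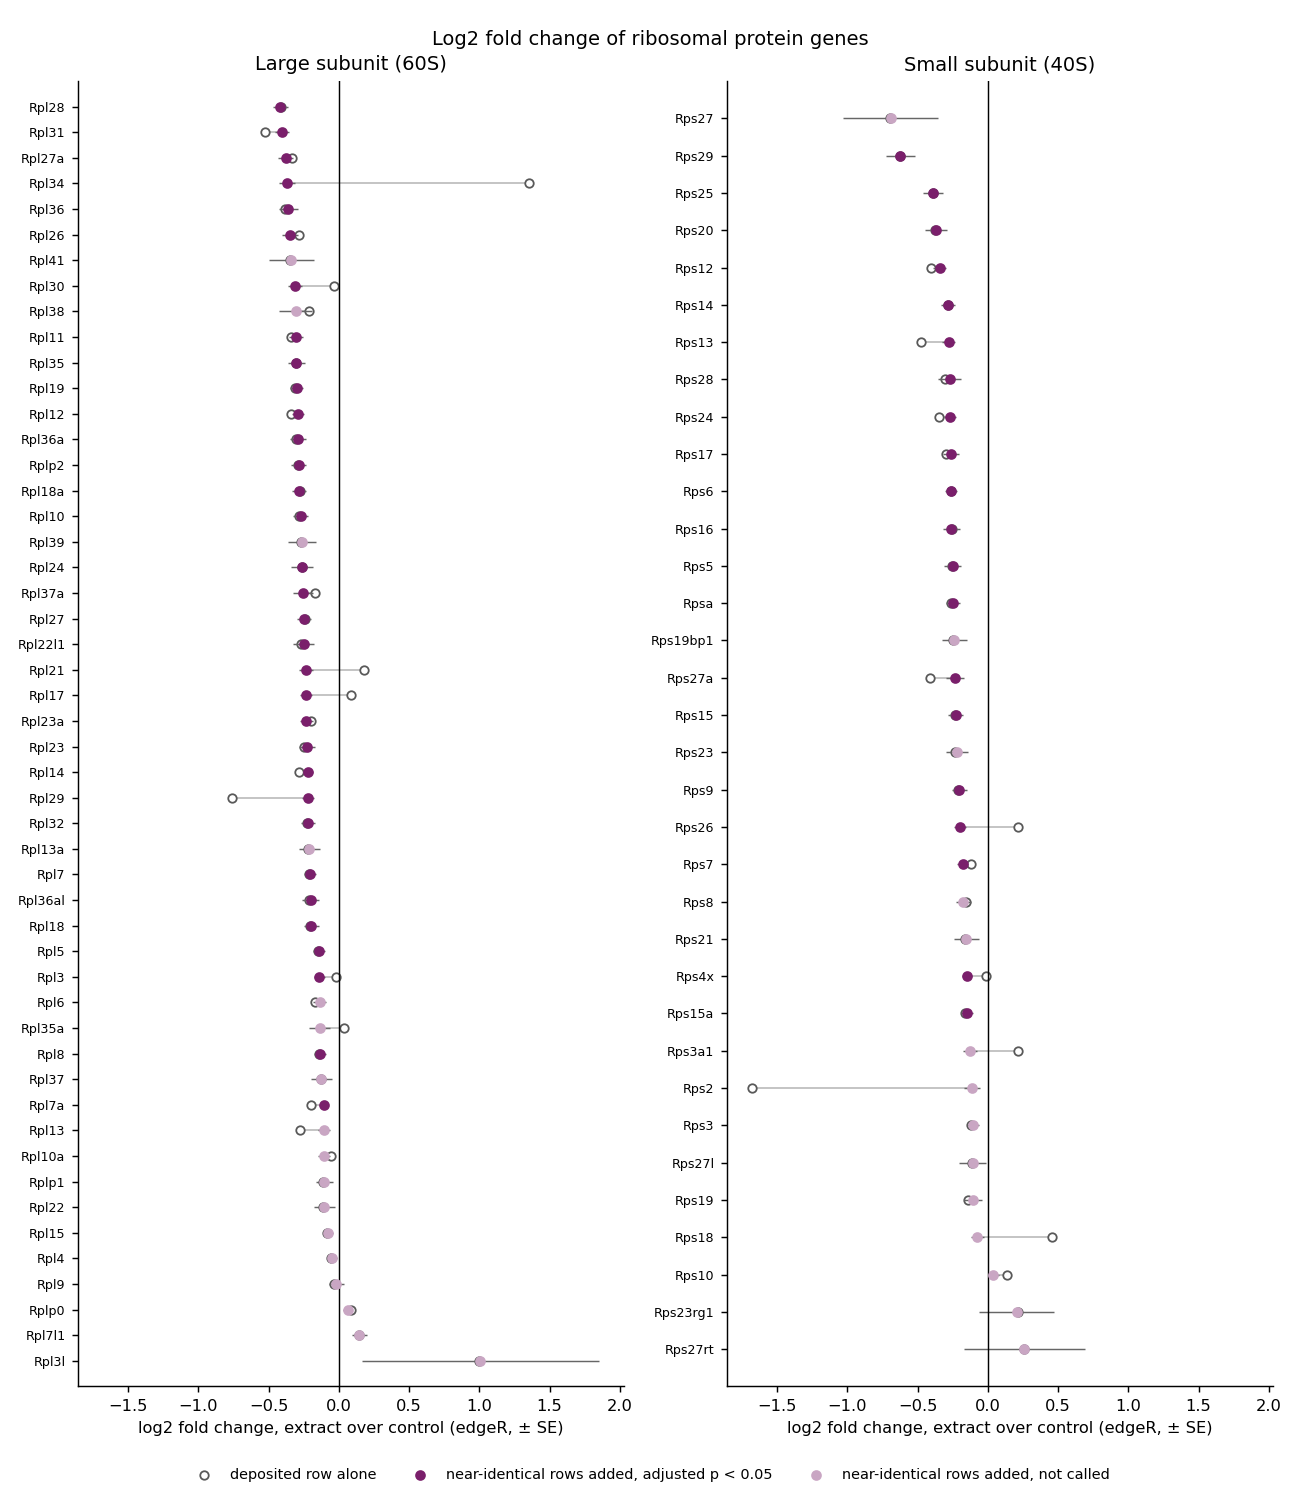
Log2 fold change, extract over control (x axis), of the tested genes of the large subunit (left) and the small subunit (right, with 1 gene not drawn), ordered by the value with near-identical rows added. Filled points are with those rows added, dark where the adjusted p was under 0.05, with bars of 1 SE; open points are the deposited row alone. With those rows added, 79 of all 85 tested genes lay below 0, and the open points of Rpl34 at 1.35, Rps18 at 0.46 and Rps2 at -1.68 stand far from their filled ones.

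In the small subunit, Rps29, Rps12, Rps25 and Rps20 fell most among genes called both from their own rows and with copies added. Rps29, a small zinc-binding protein of the 40S head, had 63.5, 58.6 and 73.7 FPKM in extract livers, against 93.9, 107 and 114 FPKM in control livers. All 3 extract libraries were below the lowest control, and the log2 fold change was -0.62 (SE 0.10, adjusted p = 0.00366), a level 0.649 times that of control. Rps25, which binds viral internal ribosome entry sites, had 39.6, 39.2 and 40.6 FPKM in extract livers, against 47.9, 57.2 and 58.1 FPKM in control livers (log2 fold change -0.39, SE 0.07, adjusted p = 0.00631). Rps12 averaged 30.4 ± 1.35 FPKM in extract livers and 42.1 ± 1.83 FPKM in control livers (mean ± SD, n = 3 each, as in later values of this form), and had a log2 fold change of -0.41, or -0.34 with its 19 copies. For Rps20, of the 40S head, the values were 15.02 ± 0.9701 FPKM in extract livers and 20.4 ± 1.601 FPKM in control livers (log2 fold change -0.38). In each of these 4 genes the highest extract library lay below the lowest control library.

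Rps6, the substrate of the S6 kinases, had 161, 161 and 162 FPKM in extract livers, against 193, 207 and 205 FPKM in control livers. Its extract libraries were close together and all lay under the controls (log2 fold change -0.26, SE 0.04, adjusted p = 0.00259). Rpsa, also known as the laminin receptor, averaged 93.8 ± 1.04 FPKM in extract livers and 118 ± 8.12 FPKM in control livers and fell (log2 fold change -0.26, adjusted p = 0.00561). So did Rps14, whose loss causes the anemia of the 5q- syndrome in humans, with 55.9 ± 1.83 FPKM in extract livers and 71.1 ± 4.06 FPKM in control livers (log2 fold change -0.29, adjusted p = 0.00496). Rps15, a late-assembling head protein and the second most abundant of the 86 by FPKM, had 222 ± 4.05 FPKM in extract livers and 273 ± 18.2 FPKM in control livers (log2 fold change -0.24, adjusted p = 0.012). Its call was lost without the second control library or without the first or second extract library (adjusted p = 0.0517, 0.0791 and 0.0556).

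Some small subunit genes did not pass the test. Rps19, the gene most often mutated in human Diamond-Blackfan anemia, had 11.3, 10.96 and 12.1 FPKM in extract livers, against 12.1, 14.2 and 13.2 FPKM in control livers, with the highest extract library just under the lowest control (log2 fold change -0.14, SE 0.07, adjusted p = 0.166). In CPM the groups of Rps19 overlapped, at 65.3, 62.8 and 70.8 with the extract, against 67.4, 77.8 and 74.2 in control. Rps3, which lines the messenger RNA entry and also acts in DNA repair, had 36.8, 36.4 and 38.1 FPKM in extract livers, against 40.8, 42.7 and 42.4 FPKM in control livers. Its groups did not overlap, and the log2 fold change was -0.12 (SE 0.04, adjusted p = 0.0805). Rps23, in the decoding centre, had 91.7 ± 4.81 FPKM in extract livers and 112 ± 11.2 FPKM in control livers (log2 fold change -0.23, adjusted p = 0.0636), and it passed without the first control library (adjusted p = 0.0166). Rps10 stood slightly above 0 with 34.2, 35.7 and 35.7 FPKM in extract livers, against 31.7, 34.7 and 33.9 FPKM in control livers (log2 fold change 0.14, adjusted p = 0.0737, and 0.04 with copies). Its CPM values were higher with the extract without overlap (97.6, 100.7 and 103.4, against 86.9, 93.8 and 93.9 in control), and overlapped with copies added. Rps27a, made as a fusion with ubiquitin, varied widely within both groups in its own row, at 14.4, 40.998 and 35.4 FPKM in extract livers, against 47.95, 57.7 and 20.8 FPKM in control livers (adjusted p = 0.527). With its 10 copies, the CPM values of Rps27a were lower without overlap and it fell (log2 fold change -0.23, SE 0.06, adjusted p = 0.0259).

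In the large subunit, Rpl31 and Rpl28 fell most from their own rows among the genes with at most 20% of their counts in copies. That limit leaves out Rpl29, described below, which fell more from its own row. Rpl31, near the exit of the peptide tunnel, had 49.6, 46.96 and 51.1 FPKM in extract livers, against 72.6, 77.3 and 72.1 FPKM in control livers (log2 fold change -0.53, SE 0.05, adjusted p = 0.00026; -0.41 with copies). Rpl28 had 92.6, 87.4 and 92.6 FPKM in extract livers, against 119, 131 and 128 FPKM in control livers (log2 fold change -0.41, SE 0.05, adjusted p = 0.000787). With copies added its log2 fold change was -0.42. Rpl36 had 154, 156 and 163 FPKM in extract livers, against 196, 230.1 and 218 FPKM in control livers (log2 fold change -0.38, SE 0.06, adjusted p = 0.0036). In all 3 genes the lowest control lay above the highest extract library. Rpl19, which takes part in a bridge between the subunits and was the third most abundant gene by own-row FPKM, averaged 183 ± 1.13 FPKM in extract livers and 237 ± 11.6 FPKM in control livers (log2 fold change -0.31, adjusted p = 0.00203). Rpl10, which joins the particle late and lies close to the peptidyl transferase centre, averaged 136 ± 2.63 FPKM in extract livers and 172 ± 11.2 FPKM in control livers (log2 fold change -0.28, adjusted p = 0.00686).

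Rpl5 and Rpl11 form a particle with 5S ribosomal RNA, and in mammals the same particle binds MDM2, the ligase that degrades p53. Rpl11 had 49.7, 47.7 and 51.01 FPKM in extract livers, against 62.1, 66.2 and 67.6 FPKM in control livers (log2 fold change -0.34, SE 0.05, adjusted p = 0.00241). Rpl5 had 47.2, 49.5 and 49.1 FPKM in extract livers, against 52.97, 58.7 and 57.3 FPKM in control livers, and just passed (log2 fold change -0.15, SE 0.05, adjusted p = 0.0481). Rpl5 no longer passed when any library other than the first control was left out (adjusted p = 0.0905 to 0.232). Rpl23, another protein reported to bind MDM2, averaged 66.7 ± 3.27 FPKM in extract livers and 82.7 ± 5.08 FPKM in control livers and fell (log2 fold change -0.25, adjusted p = 0.0192), but not without the second or the third extract library (adjusted p = 0.0893 and 0.0662). Rpl26 had only 3.797 to 7.45 FPKM in its own row, with 94.9% of its counts in 8 copies, and it fell as a sum (log2 fold change -0.35, SE 0.06, adjusted p = 0.00319). Without the first control library it also fell from its own row (log2 fold change -0.51, adjusted p = 0.0188). Rpl29 had an even smaller own row, with 98.2% of its counts in 41 copies. Its log2 fold change was -0.76 (adjusted p = 0.0412) from its own row, a call lost without the second or the third control library or any extract library (adjusted p = 0.0873 to 0.152), and -0.22 (adjusted p = 0.00842) with copies.

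Of the 3 genes of the large subunit's stalk, which recruits elongation factors, Rplp2 fell. Rplp0, its base, had 118, 118 and 119 FPKM in extract livers, against 114, 122 and 115 FPKM in control livers (log2 fold change 0.08, SE 0.04, adjusted p = 0.148). In CPM, Rplp0 was higher with the extract without overlap (242, 240 and 248, against 224, 236 and 228 in control). Rplp1, the most abundant of all 86 genes by own-row FPKM, had 239, 241 and 261 FPKM in extract livers, against 262, 291 and 283 FPKM in control livers (log2 fold change -0.11, SE 0.06, adjusted p = 0.203), and the highest extract library was just under the lowest control. In CPM the groups of Rplp1 overlapped (147, 147 and 163 with the extract, against 155, 170 and 169 in control). Rplp2 had 26.96, 25.4 and 26.3 FPKM in extract livers, against 32.4, 35.7 and 32.6 FPKM in control livers (log2 fold change -0.29, SE 0.05, adjusted p = 0.00471). The difference in response between the 3 stalk genes was not tested.

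Rpl13, Rpl13a, Rpl22 and Rpl38 were less clear. Rpl13 fell from its own row (log2 fold change -0.28, adjusted p = 0.0481), and not with copies added (log2 fold change -0.11, adjusted p = 0.101). The call was lost when any library other than the third control was left out (adjusted p = 0.0971 to 0.187). Rpl13a, which in human cells also represses translation of inflammatory messages, averaged 103 ± 2.81 FPKM in extract livers and 125 ± 12.5 FPKM in control livers (log2 fold change -0.22, adjusted p = 0.058), and passed without the first control library (adjusted p = 0.00447). Rpl22 averaged 23.2 ± 0.421 FPKM in extract livers and 26.1 ± 2.62 FPKM in control livers (log2 fold change -0.11, adjusted p = 0.296). It passed without the first control library (adjusted p = 0.0312). Rpl38, needed for translation of Hox messages in the mouse embryo, had 66.3, 35.7 and 74.99 FPKM in extract livers, against 38.3, 83.7 and 92.6 FPKM in control livers. These values cross between the groups, with 1 low library in each, and the log2 fold change of -0.21 (SE 0.36) was 0.06 without the second extract library and 0.03 without the third control library. With its 5 copies added, the log2 fold change of Rpl38 was -0.31 (SE 0.12, adjusted p = 0.0936), and the CPM values of the groups still overlapped.

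The paralogs and other genes that the names take in had their own values. Rpl22l1, whose coding sequence is 75.1% identical to that of Rpl22, had 5.27, 4.96 and 5.81 FPKM in extract livers, against 6.88, 6.84 and 6.46 FPKM in control livers (log2 fold change -0.27, SE 0.08, adjusted p = 0.0486). Its call just passed, and was lost when any library other than the third extract library was left out (adjusted p = 0.0775 to 0.167) and by DESeq2 (adjusted p = 0.107). Rpl36al, 87.7% identical to Rpl36a, averaged 63.99 ± 2.15 FPKM in extract livers and 77.2 ± 5.46 FPKM in control livers and fell (log2 fold change -0.21, adjusted p = 0.0321), a call lost when any library other than the first control was left out (adjusted p = 0.0625 to 0.121). Rps27l, a p53 target gene, averaged 75.9 ± 7.78 FPKM in extract livers and 85.6 ± 9.73 FPKM in control livers (log2 fold change -0.11, adjusted p = 0.438). Rpl7l1 had 13.7, 14.7 and 14.2 FPKM in extract livers, against 14.1, 13.3 and 12.97 FPKM in control livers, above control in 2 of the 3 extract libraries and within its range in the other (log2 fold change 0.14, adjusted p = 0.0856). In CPM, Rpl7l1 was higher with the extract without overlap (59.0, 63.0 and 62.1, against 58.5, 54.3 and 54.3 in control). Rpl3l, a paralog known from striated muscle, was low and scattered at 1.54, 0.618 and 1.49 FPKM in extract livers, against 1.07, 0.819 and 0.0207 FPKM in control livers (adjusted p = 0.427). Rps23rg1 was also low, at 1.103, 0.939 and 0.874 FPKM in extract livers, against 1.07, 1.04 and 0.503 FPKM in control livers (adjusted p = 0.615). Rps19bp1 averaged 7.44 ± 0.476 FPKM in extract livers and 9.23 ± 0.461 FPKM in control livers (log2 fold change -0.25, adjusted p = 0.0793).

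Rps27 and the retrogene Rps27rt have coding sequences that are 100% identical, and their rows mirrored each other. Rps27 had 70.9, 71.4 and 28.8 CPM with the extract, against 65.4, 95.8 and 116.7 in control. Rps27rt had 25.6, 24.3 and 69.5 with the extract, against 50.2, 25.5 and 24.5 in control. The library in which one row was low in its group had a high value in the other. Their sum was 96.5, 95.7 and 98.3 CPM with the extract, against 115.6, 121.4 and 141.1 in control, without overlap (exact permutation test over the libraries, two-sided p = 0.1, the smallest that 3 against 3 can give). Neither row was called alone, with log2 fold changes of -0.70 for Rps27 (adjusted p = 0.167) and 0.25 for Rps27rt (adjusted p = 0.714). They were also kept apart in the fit with near-identical rows added, where the values were -0.69 and 0.26. These 2 genes were picked after their values had been seen.

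Genes of both subunits fell. From their own rows, 27 of 50 tested large subunit genes fell and 1 rose, with a median log2 fold change of -0.21, and 16 of 35 small subunit genes fell and 3 rose, with a median of -0.25. Among all genes tested from the deposited rows, 12.8% fell and 14.2% rose. With copies added, 33 of 50 large subunit genes fell with a median of -0.23, and 21 of 35 small subunit genes fell with a median of -0.23, against 12.5% lower and 14.9% higher among all genes. No gene of either subunit rose in that fit, by edgeR or by DESeq2, with 1 large and 0 small subunit genes higher at an unadjusted p under 0.05. The own-row falls were 11 in the large and 11 in the small subunit without the second extract library, 14 and 11 without the first extract library, 17 and 11 without the second control library, and 16 and 14 without the third extract library. The 3 small subunit rises were 0 when any extract library was left out and 1 without the first or the second control library. The summed large subunit level was 1.502, 1.445 and 1.454 times the summed small subunit level in extract livers, against 1.388, 1.453 and 1.466 times in control livers. These ratios of FPKM overlap (exact permutation test, two-sided p = 0.5). As counts with copies, the ratio was 1.58, 1.56 and 1.58 with the extract, against 1.56, 1.55 and 1.57 in control (p = 0.4, same exact test). The mean of this ratio of counts was 1.57 ± 0.0140 with the extract and 1.56 ± 0.0111 in control (SD, n = 3 each).

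**Figure D3:**
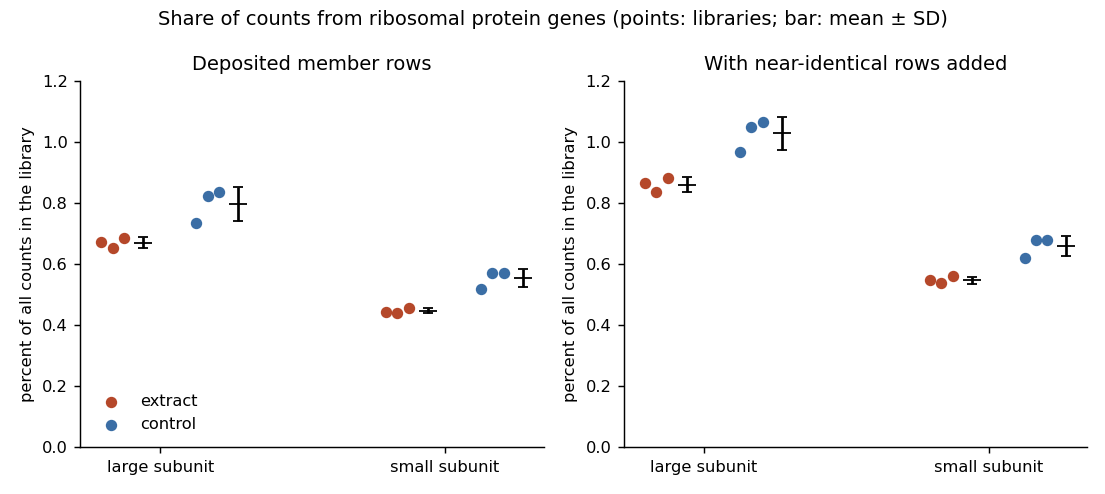
Share of all counts of a library (y axis, percent) that came from large and small subunit genes, from the deposited rows (left) and with near-identical rows added (right). Points are libraries and bars mean ± SD (n = 3). In all 4 pairs the 3 extract libraries lie below the 3 control libraries; with copies added the large subunit had 0.860% ± 0.0238 with the extract and 1.03% ± 0.0528 in control, and the small subunit 0.547% ± 0.0114 with the extract and 0.658% ± 0.0332 in control.

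Some promoter letters were more frequent among these genes than among others, and they are shown for 3 genes that fell. RefSeq promoters on GRCm38.p6, 250 bases before to 50 after the start, were found for 66 of the 86 genes. The letters CCGGAAG, the core of the site that ETS family factors bind, were present on either strand in 26 of them (39.4%), against 17.5% of the promoters of 12234 other tested genes. AAGATGG, which can overlap CCGGAAG, was in 15.2% against 7.80%. TATAAA was in 10.6% against 10.4% and GGGCGG in 60.6% against 62.4%. The stretches run from 100 bases before to 20 after the start, 5′ to 3′ on the gene's strand, with CCGGAAG in capitals.
Rpl11 (chr4:136053374-136053493, minus strand): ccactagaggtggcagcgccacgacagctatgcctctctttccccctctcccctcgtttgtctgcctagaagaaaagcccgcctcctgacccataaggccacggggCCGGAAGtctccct
Rpl31 (chr1:39367751-39367870, plus strand): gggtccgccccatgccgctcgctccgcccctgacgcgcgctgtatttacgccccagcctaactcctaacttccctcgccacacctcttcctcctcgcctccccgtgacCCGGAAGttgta
Rps6 (chr4:86857348-86857467, minus strand): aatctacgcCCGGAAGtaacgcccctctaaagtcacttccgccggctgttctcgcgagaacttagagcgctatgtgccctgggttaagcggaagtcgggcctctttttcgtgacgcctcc
A match is a description of letters, and binding was not measured.

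Of 22 other translation genes listed for the TOP motif, 6 fell and 5 rose, with a median log2 fold change of -0.02. The motif was not checked in their sequences. For this list and those that follow, the shares over all genes tested are 12.8% lower and 14.2% higher. Tpt1, the translationally controlled tumour protein, fell with 224 ± 3.83 FPKM in extract livers and 325 ± 15.8 FPKM in control livers (log2 fold change -0.48, SE 0.05, adjusted p = 0.000232). Eef1d, a subunit of the elongation factor exchange complex, fell with 8.45 ± 0.5704 FPKM in extract livers and 11.54 ± 0.5003 FPKM in control livers (log2 fold change -0.39, SE 0.06). Pabpc1, the poly(A)-binding protein, rose with 35.5 ± 0.769 FPKM in extract livers and 31.5 ± 0.569 FPKM in control livers (log2 fold change 0.23, SE 0.04), and Eif3a, the largest part of initiation factor 3, rose with 16.7 ± 0.3699 FPKM in extract livers and 14.4 ± 0.864 FPKM in control livers (log2 fold change 0.27, SE 0.05).

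Among host genes of small nucleolar RNAs, many of which also begin with pyrimidine runs, 4 of 16 fell and 0 rose (edgeR; 1 higher at an unadjusted p under 0.05, and 1 by DESeq2), with a median of -0.20. Snhg3 fell with 1.39 ± 0.335 FPKM in extract livers and 4.58 ± 1.23 FPKM in control livers (log2 fold change -1.63, SE 0.26, adjusted p = 0.00266). Snhg16, Snhg12 and Snhg1 had log2 fold changes of -1.18, -0.54 and -0.41. Of 47 genes that build ribosomes, 6 rose and 2 fell, with a median of 0.07. Riok2, a kinase of late 40S maturation, rose with 7.14 ± 0.255 FPKM in extract livers and 5.14 ± 0.358 FPKM in control livers (log2 fold change 0.54, SE 0.06, adjusted p = 0.000721). Eif6, which keeps the 60S subunit apart from the 40S, and Wdr43 rose by 0.22 and 0.29 on the log2 scale, and Nob1, the nuclease that finishes 18S ribosomal RNA, fell by 0.37.

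For RNA polymerase I, which makes ribosomal RNA, 3 of 15 tested genes rose and 3 fell. Rrn3 and Polr1b rose, with log2 fold changes of 0.34 and 0.33, and Ubtf and Taf1d fell, with -0.29 and -0.43. In the list of mTOR, LARP1 and MYC genes, 5 of 18 rose and 2 fell. Myc rose with 6.11 ± 0.482 FPKM in extract livers and 1.67 ± 0.306 FPKM in control livers (log2 fold change 1.92, SE 0.14, adjusted p = 6.58e-05), and its relative Mycn fell with 0.819 ± 0.165 FPKM in extract livers and 1.86 ± 0.354 FPKM in control livers (log2 fold change -1.13, SE 0.20). Larp1, which binds TOP messages, rose with 14.4 ± 0.202 FPKM in extract livers and 12.8 ± 0.317 FPKM in control livers (log2 fold change 0.24, SE 0.04), and Eif4ebp1, an inhibitor of cap-dependent initiation, rose with 14.4 ± 0.204 FPKM in extract livers and 12.6 ± 0.324 FPKM in control livers (log2 fold change 0.26, SE 0.05). These are RNA levels, and neither translation nor mTOR activity was measured.

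Of 78 mitochondrial ribosomal protein genes, tested in the same fit, 11 fell and 5 rose, with a median of -0.08. Of 91 nuclear genes of oxidative phosphorylation, 35 fell and 6 rose, with a median of -0.15. Among all genes in that fit, 12.8% fell and 14.2% rose. The difference of the cytosolic ribosomal protein genes from these groups was not tested.

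**Figure D4:**
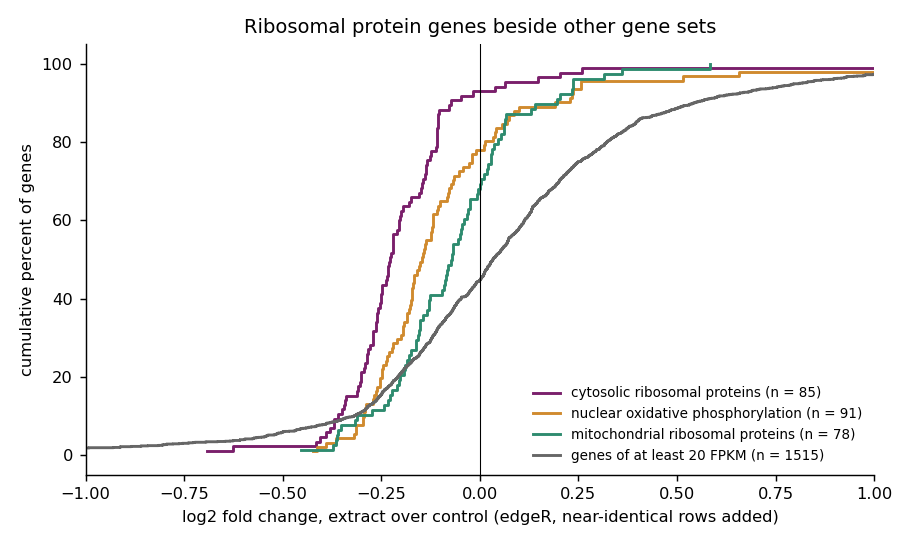
Cumulative percent of genes (y axis) by log2 fold change, extract over control (x axis, cut at -1 and 1), with near-identical rows added. The curve of the 85 cytosolic ribosomal protein genes lies left of those of 91 nuclear oxidative phosphorylation genes, 78 mitochondrial ribosomal protein genes and 1515 genes of at least 20 FPKM over most of its height, with medians of -0.23, -0.15, -0.07 and 0.03 in that order.

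Markers of blood and immune cells were lower in the same extract libraries. All 7 red cell genes tested fell, with a summed level of 198 to 236 FPKM in extract livers and 1272 to 1617 FPKM in control livers. Of 10 neutrophil genes 8 fell, with 10.7 to 14.0 FPKM with the extract and 57.3 to 118 FPKM in control, and of 8 B and plasma cell genes 6 fell, with 37.2 to 47.0 FPKM with the extract and 87.2 to 148.6 FPKM in control. All 12 Kupffer cell genes fell, with 307 to 322 FPKM with the extract and 508 to 536 FPKM in control, and 5 of 10 T and NK cell genes fell, with 5.14 to 5.48 FPKM with the extract and 9.18 to 10.97 FPKM in control. In the sinusoidal endothelial list 4 of 8 genes fell, with 37.2 to 40.6 FPKM with the extract and 46.9 to 51.1 FPKM in control. In the cholangiocyte list 1 of 5 fell (29.0 to 36.7 FPKM with the extract and 35.8 to 48.7 FPKM in control), and in the stellate list 1 fell and 1 rose of 6 (41.8 to 46.0 FPKM with the extract and 40.8 to 49.0 FPKM in control). In the blood, immune, sinusoidal endothelial and cholangiocyte lists, no gene was called higher by edgeR, by DESeq2, or at an unadjusted p under 0.05 (0 genes each). Of the 10 hepatocyte genes 4 fell and 3 rose. The part of these cells in the lower ribosomal protein messages was not tested.

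Fold changes also followed transcript length. Among other protein-coding genes of at least 20 FPKM, the median log2 fold change was -0.13 for 111 genes with a median transcript under 600 bases, 0.01 for 520 genes of 600 bases or more but under 1000, 0.06 for 400 under 2000, 0.12 for 263 under 4000 and 0.22 for 48 of 4000 bases or more. Ribosomal protein transcripts are short, with a median of 658 bases over the 86 genes, and 79 are under 1000. Those of at least 20 FPKM had medians of -0.23 under 600 bases (28 genes), -0.24 from 600 to under 1000 (40 genes) and -0.24 from 1000 to under 2000 (4 genes). In each of these length classes they lay below the other genes of at least 20 FPKM. Without that minimum, the 7 ribosomal protein genes from 1000 to under 2000 bases had a median of 0.09, against -0.03 for the 3770 other genes, and in both shorter classes they lay below the other genes. The part of length in their lower level was not otherwise tested.

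**Figure D5:**
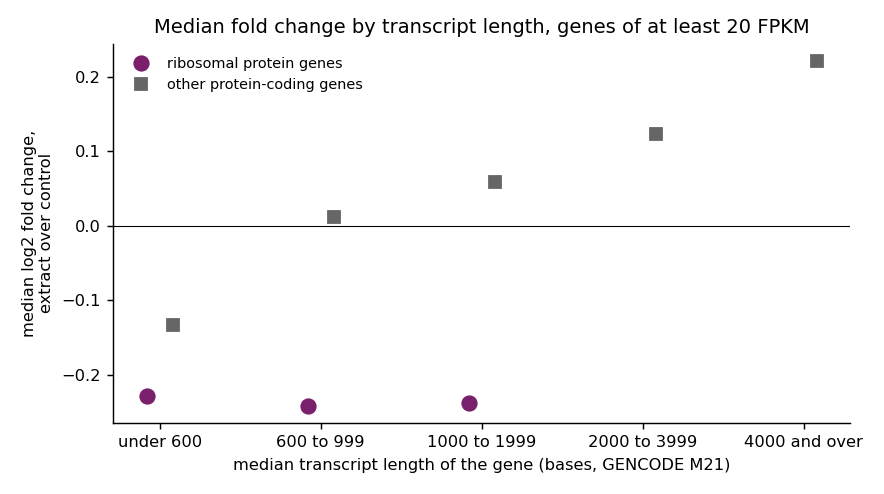
Median log2 fold change, extract over control (y axis), of ribosomal protein genes (circles) and other protein-coding genes (squares) of at least 20 FPKM, by median transcript length in bases (x axis). Squares climb with length from -0.13 to 0.22, and the 3 circles stay between -0.24 and -0.23; the circle for 1000 to under 2000 bases rests on 4 genes.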

How the data were processed

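Per the labels' protocols, mouse liver RNA captured on oligo(dT) beads was sequenced in 6 libraries, 3 per group. Tools listed without settings in the submitters' processing notes are StringTie 1.3.4d, HISAT2 2.0.4, cutadapt 1.9 and edgeR; strand use and genome build are not given in the sources used here. All 86 gene identifiers are in GENCODE M21 on GRCm38. The deposited table holds estimated counts, whole numbers whose low values peak at 4 (6292 entries, against 4117 at 3), so a value of a few counts may stand for 1 read pair. It also holds FPKM computed by the authors. Another 6 per-sample columns match no sample and were not used. Depth was 51219533 to 61432016 counts.

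The test was edgeR's (4.0.16, under R 4.3.3): filterByExpr, TMM factors and the two-sided quasi-likelihood test (Benjamini-Hochberg adjustment over all genes tested, threshold 0.05), with all 6 libraries and no covariates. Log2 fold changes are extract over control, computed from the deposited counts. Near-identical rows were found with blastn 2.17.0 (a match also had to cover 50% of the copy), and their counts were added to the gene. The ribosomal protein genes and all lists were chosen with earlier results of these data known. Named genes are the largest changes past the threshold, the 3 highest and lowest by FPKM, those nearest to the threshold, a fixed set with known roles, and up to 4 genes per list by smallest p. Some genes these rules name are not reported here. The fits were tested on simulated data whose changes were larger than most described here, and recovery of smaller changes was not tested. Alternatives were DESeq2 1.42.0, limma 3.58.1 on log2(FPKM + 0.5), other factors, filters and pseudocounts, the replicate number as a block, and each library left out.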

Additional observations from a re-analysis of the deposited data

How the results depend on the processing

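The number of ribosomal protein genes called lower, 43, was between 34 and 49 under the other settings tried on all 6 libraries, apart from 54 with near-identical rows added, and between 22 and 48 with a library left out. The number called higher, 4, was 1 with named pseudogenes added, 0 with near-identical rows added, 2 without the filter on low counts, 2 with total counts only, 1 with upper-quartile factors and 1 in each limma fit on log2(FPKM + 0.1), log2(FPKM + 0.5) with and without the filter, and log2(FPKM + 1). With a library left out it was 1 to 4. The 1 large subunit gene called higher was 0 with named pseudogenes or near-identical rows added, and 2 by limma with TMM factors. The 27 called lower were 11 to 30 with a library left out. The 3 small subunit genes called higher were 1 with named pseudogenes added, without the filter and with total counts only, and 0 with near-identical rows added, with upper-quartile factors and in the limma fits on log2(FPKM + 0.1), log2(FPKM + 0.5) with and without the filter, and log2(FPKM + 1). With a library left out they were 0 to 3, and the 16 called lower were 11 to 18. With near-identical rows added, the 54 falls were 35 to 62 with a library left out and the count of rises stayed at 0.

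The log2 fold change of Rpl34 turned to -0.36 with named pseudogenes and -0.37 with near-identical rows added, that of Rps18 to -0.085 and -0.074, and that of Rps26 to -0.21 and -0.20. Rps3a1 turned to -0.13 with near-identical rows added. With a library left out, Rps23rg1 ran from -0.050 (without the third control library) to 0.39, and Rpl38 from -0.51 to 0.056 (without the second extract library, and 0.025 without the third control library). The cause was not tested for Rps23rg1 and Rpl38. For the others the added rows are the only change of setting, and the filter, scaling factors and fit were then computed again. Rps2 and Rpl13 lost their calls with near-identical rows added.

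Over all genes, 2561 were higher and 2309 lower. The split was 2120 and 2833 with total counts only, 2166 and 2768 with upper-quartile factors, 1818 and 2706 by limma on log2(FPKM + 0.5), and 1485 and 2261 without its filter. With a library left out, 1776 to 2553 were higher and 1442 to 2153 lower. The median over all genes moved between -0.07 and 0.03 with the scaling, and that of the ribosomal protein genes between -0.29 and -0.19. With the replicate number as a block, 2 ribosomal protein genes were higher, 1 of them in the small subunit, and 36 lower (0 and 47 with near-identical rows added). Same-numbered libraries did not deviate together (correlations -0.0996, -0.0309 and -0.0833), so the numbers are taken as names only. With counts divided by 4, none of the named genes lost its call and 2 gained one (41 kept their side of the threshold). Depth limits genes of a few counts, and Rpl39l cannot be judged. Rpl3l had 164, 69 and 166 counts with the extract, against 107, 100 and 3 in control, and varied too widely to be judged.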
